A study of Mus musculus with 12 samples.

Results

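The chemokines and chemokine receptors of mouse dorsal skin were followed across a model of atopic dermatitis and its treatment with mesenchymal stem cells (MSCs). Members were taken by name: every gene of the deposited table whose symbol begins with Ccl, Cxcl, Xcl or Cx3cl (ligands) or with Ccr, Cxcr, Xcr or Cx3cr (receptors), followed by a number. This gave 59 of 36400 genes, 40 ligands and 19 receptors, and the table types 2 of the ligands, Ccl19-ps1 and Ccl19-ps3, as unprocessed pseudogenes and Cxcl11 as both a polymorphic pseudogene and protein-coding. RNA was sequenced from the shaved back skin of female BALB/c mice, 6 weeks old at the start, with 3 libraries in each of 4 groups. Each treatment group held more mice than libraries, and whether a library came from 1 mouse or from several, and how they were chosen, is not given in the sources used here. The p-values therefore measure only the spread between these libraries. Control mice (labelled Solvent) received only the vehicle of acetone and olive oil. The DNCB group was sensitized with 1% 2,4-dinitrochlorobenzene, a contact allergen, and then challenged with 0.5% DNCB up to day 27. The scMSC group had the same DNCB and 4 injections of 2000000 human umbilical cord MSCs in 100 µL beneath the dorsal skin, the first on day 13 and the last on day 25. In the scivMSC group each dose was shared, 50 µL being given under the skin and 50 µL through the tail vein. All skin was collected on day 30, and no group received DNCB with the culture solution alone, so that cells and injection cannot be told apart.

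Chemokines are small secreted proteins that direct the migration of leukocytes through receptors coupled to G proteins. CXC ligands with a Glu-Leu-Arg motif attract neutrophils through Cxcr1 and Cxcr2, CC ligands act mainly on monocytes, T cells, eosinophils and dendritic cells, and a homeostatic set that includes Ccl27, Cxcl14, Ccl21 and Cxcl12 is made in resting skin. Transcription of many inflammatory ligands is driven by NF-kB, a transcription factor activated by cytokines and microbial products.

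Each library held between 63877153 and 75134001 estimated counts, and about 4 estimated counts stand for 1 sequenced fragment. Of the members, 51 (35 ligands and 16 receptors) had a mean of at least 0.1 FPKM (fragments per kilobase of transcript and per library size, a level per length) and were tested among 21890 genes. A gene was called at an adjusted p under 0.05 by edgeR's quasi-likelihood test (Benjamini-Hochberg over all genes tested) and an absolute log2 fold change over 1. A group with no count in any of its libraries was set against a floor of 3 fragments, or 12 estimated counts, in each library. The keratinocyte genes Krt5, Krt14, Krt1, Krt10, Trp63 and Dsg3 summed to at least 4377 FPKM in every library, as the skin label requires. The replicate 3 libraries of 2 groups stood apart. The 8 macrophage and monocyte genes summed to 544 FPKM in control replicate 3 against 143 and 153 in the other control libraries, and to 36.9 FPKM in scivMSC replicate 3 against 245 and 332. Fibroblast genes were also lowest in scivMSC replicate 3, at 100 FPKM.

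Compared with the control group, the DNCB group had higher RNA of the neutrophil-attracting ligands Cxcl1, Cxcl2, Cxcl3 and Cxcl5, of the monocyte-attracting ligands Ccl3, Ccl4 and Ccl7, and of the receptors Cxcr1, Cxcr2, Ccr1, Cxcr4 and Ccr3. It had lower RNA of the keratinocyte chemokines Ccl27a and Ccl27b, of Xcl1 and of Ccr4, a chemokine receptor carried by T cells. In all, 16 of 51 tested members were called, 12 higher and 4 lower, where 14.2% of all tested genes were called, 6.59% higher and 7.57% lower. Against scMSC 18 members were called, 14 higher and 4 lower in DNCB, beside 8.50% of all tested genes (3.84% higher and 4.66% lower). Against scivMSC 13 members were called, 11 higher and 2 lower in DNCB, beside 5.46% of all (2.33% higher and 3.13% lower). This last count fell to 7 without DNCB replicate 1, to 7 without scivMSC replicate 1 and to 8 without scivMSC replicate 3. These comparisons share the DNCB libraries. In DNCB against control the tested members had a median log2 fold change of 0.19, where all tested genes had 0.02. The medians were 0.54 and -0.02 against scMSC, and 0.82 and -0.02 against scivMSC. In 16 tested members every DNCB library was above the other 9 libraries, a pattern found in 9.44% of all tested genes. In bulk skin, more cells of a type and more RNA per cell cannot be told apart.

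**Figure D1:**
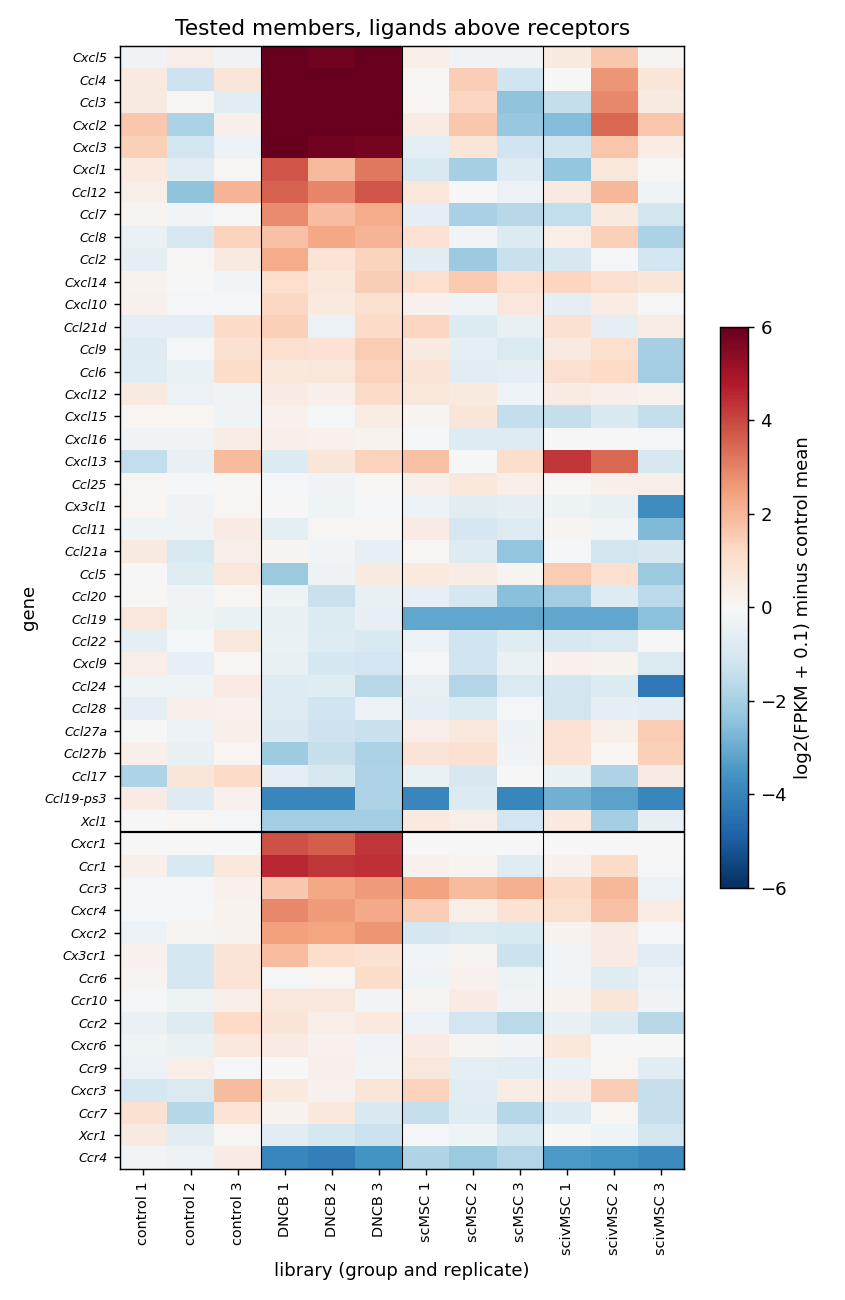
Levels of 50 of the 51 tested members in the 12 libraries, as log2(FPKM + 0.1) minus the mean of the 3 control libraries; columns are libraries, rows are genes, ligands stand above the black line and receptors below, and genes are sorted by their log2 fold change in DNCB against control. Cxcl5, Ccl4, Ccl3, Cxcl2, Cxcl3, Cxcr1 and Ccr1 are dark red in the 3 DNCB columns alone, and Ccr4 is blue in all 9 libraries of mice given DNCB.

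Of the 59 members, 42 have a promoter in the RefSeq table of GRCm38.p6 (49 promoters, since some genes have several start sites; 250 bases before to 50 after each start). The table was searched on both strands for GGNNTTTCC, a part of the NF-kB consensus. A match was found in 8 of 49 member promoters (16.3%) and in 1913 of 32851 promoters of the whole table (5.82%). The 8 belong to Cxcl1, Cxcl2, Cxcl3, Cxcl9, Cxcl10, Ccl9, Ccl20 and Ccr3. Of the 12 members called higher in DNCB than in control, Cxcl1, Cxcl2, Cxcl3 and Ccr3 had a match, Ccl3, Ccr1, Cxcr1, Cxcr2 and Cxcr4 had none, and Cxcl5, Ccl4 and Ccl7 had no promoter in the table. Cxcl9, Cxcl10, Ccl9 and Ccl20 had a match and were not called. Among members called higher in all 3 comparisons 1 of 6 promoters had a match (16.7%), and among the others 7 of 43 (16.3%). TATAAA was found in 13 member promoters (26.5%) and in 13.6% of all. The 150 bases before the start sites of Cxcl1 (chr5:90891095-90891244), Cxcl2 (chr5:90903749-90903898), Cxcl3 (chr5:90785951-90786100) and Cxcl15 (chr5:90794384-90794533), all on the plus strand, are shown. These are neighbours of 1 gene cluster, 3 called in DNCB against control and Cxcl15 not. Cxcl15 had a mean of 0.170 FPKM in control and 0.214 FPKM in DNCB, close to the filter of 0.1 FPKM. Its response is therefore unresolved, and a link between matches and response was not tested. Capitals mark each match to GGNNTTTCC on either strand.
Cxcl1: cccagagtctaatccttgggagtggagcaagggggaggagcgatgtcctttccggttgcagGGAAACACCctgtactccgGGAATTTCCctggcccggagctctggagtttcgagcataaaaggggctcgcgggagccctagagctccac
Cxcl2: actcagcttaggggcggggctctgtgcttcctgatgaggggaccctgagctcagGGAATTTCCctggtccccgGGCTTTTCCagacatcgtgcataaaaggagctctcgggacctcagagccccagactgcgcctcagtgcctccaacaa
Cxcl3: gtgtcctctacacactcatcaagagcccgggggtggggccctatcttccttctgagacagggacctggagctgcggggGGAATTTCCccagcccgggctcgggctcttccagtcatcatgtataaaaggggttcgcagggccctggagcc
Cxcl15: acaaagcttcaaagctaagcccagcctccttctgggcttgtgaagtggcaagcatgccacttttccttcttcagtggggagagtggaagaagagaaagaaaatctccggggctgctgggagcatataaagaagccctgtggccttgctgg

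The same letters, GGAATTTCC, begin 70 bases before the start of Cxcl1, 96 before that of Cxcl2 and 72 before that of Cxcl3. A further match begins 89 bases before the start of Cxcl1, where the plus strand reads GGAAACACC, and 77 bases before that of Cxcl2, where it reads GGCTTTTCC. No match lies in the window of Cxcl15. These matches are a description of letters, and binding was not measured.

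The neutrophil-attracting ligands were among the members that differed most. Cxcl2, also called MIP-2, was at 277, 183 and 158 FPKM in the DNCB libraries and at 4.43, 0.297 and 1.73 FPKM in control. It was at 1.98, 4.52 and 0.206 FPKM in scMSC and at 0.147, 16.2 and 4.56 FPKM in scivMSC. Every DNCB library lay above all other 9, whose highest was scivMSC replicate 2. Cxcl2 had a log2 fold change of 6.38 ± 1.60 (SE, n = 3 per group) against control, with an adjusted p of 0.0144 from edgeR. It was 6.46 ± 1.60 against scMSC (adjusted p = 0.0242) and 4.89 ± 1.49 against scivMSC, which was not called (adjusted p = 0.0713). Without control replicate 3 the adjusted p against control was 0.0530. Without DNCB replicates 1 or 2 or any scMSC replicate, each left out in turn, that against scMSC ran from 0.0506 to 0.0710.

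Cxcl3, a close relative of Cxcl2 in sequence and position, was lower in level and alike in pattern. It was at 21.3, 12.6 and 12.1 FPKM in DNCB and at 0.523, 0.00666 and 0.0802 FPKM in control. In the scMSC group it was at 0.0516, 0.280 and 0 FPKM, and in the scivMSC group at 0, 0.628 and 0.207 FPKM. No library outside the DNCB group reached 1 FPKM. In edgeR the log2 fold change was 6.01 ± 1.68 against control (adjusted p = 0.0237, edgeR), 7.02 ± 1.77 against scMSC (adjusted p = 0.0260) and 5.78 ± 1.66 against scivMSC, not called (adjusted p = 0.0581). The call against control was lost without control replicate 2 or 3 or DNCB replicate 1, and that against scMSC without any DNCB replicate or scMSC replicate 1 or 3, at adjusted p values of 0.0538 to 0.0759.

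Cxcl5, made in skin by epithelial cells, had the widest contrast of the ligands. It was at 14.6, 6.26 and 24.7 FPKM in DNCB, against 0, 0.0535 and 0 FPKM in control and 0.0482, 0 and 0 FPKM in scMSC. In scivMSC it was at 0.0745, 0.249 and 0.0280 FPKM. Control and scMSC held 2 fragments each over 3 libraries, so that the ratio of fragments per library total was 764 against control (95% exact binomial interval 211 to 6313) and 858 against scMSC (237 to 7091), and these intervals cover counting error only. The gene was called in both (adjusted p = 0.00126 and 0.00239, edgeR) and against scivMSC, where the log2 fold change was 6.95 ± 1.17 (adjusted p = 0.00796).

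Cxcl1, or KC, is a main ligand of Cxcr2 and is made by keratinocytes, fibroblasts and endothelium. It was at 13.8, 3.79 and 8.93 FPKM in DNCB and at 1.43, 0.523 and 0.968 FPKM in control. The scMSC libraries were at 0.435, 0.150 and 0.491 FPKM and the scivMSC libraries at 0.102, 1.52 and 0.964 FPKM. The lowest DNCB library was above the highest of the others. Its log2 fold change was 2.99 ± 0.83 against control (adjusted p = 0.0223, edgeR), 4.60 ± 0.89 against scMSC (adjusted p = 0.00799) and 3.33 ± 0.84 against scivMSC (adjusted p = 0.0355). Against control the call was lost without control replicate 2 or 3 or DNCB replicate 1 or 3 (adjusted p = 0.05003 to 0.0800). Against scivMSC it was lost without any DNCB replicate or scivMSC replicate 1 or 3 (adjusted p = 0.0547 to 0.111).

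Ccl3 and Ccl4, the macrophage inflammatory proteins MIP-1α and MIP-1β, attract monocytes and T cells, and Ccl3 is a ligand of Ccr1. Ccl3 was at 136, 98.1 and 82.5 FPKM in DNCB, against 1.51, 1.09 and 0.596 FPKM in control, 1.11, 2.59 and 0.107 FPKM in scMSC and 0.313, 8.06 and 1.49 FPKM in scivMSC. Ccl4 was at 170, 92.8 and 89.8 FPKM in DNCB, against 1.3, 0.315 and 1.49 FPKM in control, 0.928, 2.59 and 0.322 FPKM in scMSC and 0.898, 6.11 and 1.53 FPKM in scivMSC. In both genes scivMSC replicate 2 was the highest library outside the DNCB group, as it was for Cxcl2 and Cxcl3. Ccl3 differed from control by a log2 fold change of 6.42 ± 1.24 (adjusted p = 0.00409, edgeR), 6.31 ± 1.23 against scMSC (adjusted p = 0.00800) and 5.01 ± 1.15 against scivMSC (adjusted p = 0.0251). That of Ccl4 was 6.64 ± 1.00 (adjusted p = 0.00137), 6.46 ± 0.99 (adjusted p = 0.00299) and 5.37 ± 0.93 (adjusted p = 0.00913). Only the Ccl3 call against scivMSC was lost when 1 library was left out, any DNCB replicate or scivMSC replicate 1 or 3 (adjusted p = 0.0544 to 0.0907).

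The monocyte chemoattractants, ligands of Ccr2 and related receptors, had smaller fold changes. Ccl7 was at 19.9, 9.92 and 12.8 FPKM in DNCB, against 2.97, 2.39 and 2.69 FPKM in control, 1.78, 0.629 and 0.769 FPKM in scMSC and 0.895, 4.13 and 1.19 FPKM in scivMSC. Ccl7 differed from control by a log2 fold change of 2.21 ± 0.57 (adjusted p = 0.0162, edgeR), 3.72 ± 0.61 against scMSC (adjusted p = 0.00387) and 2.78 ± 0.58 against scivMSC (adjusted p = 0.0184). Without any control replicate or DNCB replicate 1 its adjusted p against control was 0.0504 to 0.0602, and without DNCB replicate 1 or scivMSC replicate 1 or 3 that against scivMSC was 0.0632 to 0.0684. Ccl2, the best known ligand of Ccr2, was at 9.67, 3.52 and 5.06 FPKM in DNCB and at 1.29, 2.06 and 2.86 FPKM in control. It was at 1.23, 0.352 and 0.722 FPKM in scMSC and at 0.968, 1.80 and 0.823 FPKM in scivMSC. The DNCB libraries did not overlap any other group, yet Ccl2 was not called against control (log2 fold change 1.37 ± 0.51, adjusted p = 0.0716). It was called against scMSC (2.96 ± 0.54, adjusted p = 0.00596) and against scivMSC (2.34 ± 0.52, adjusted p = 0.0236), the latter lost without scivMSC replicate 1 or 3 or DNCB replicate 1 or 3 (adjusted p = 0.0511 to 0.0951).

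Ccl8 had the highest mean of the 40 ligands in DNCB, control and scivMSC skin and was not called in any comparison. It was at 223, 333 and 267 FPKM in DNCB, at 49.2, 34.2 and 168 FPKM in control, at 118, 59.5 and 36.7 FPKM in scMSC and at 85.8, 178 and 17.5 FPKM in scivMSC. All DNCB libraries were above the other 9, but control replicate 3 and scivMSC replicate 2 lay well above the other libraries of their groups. Against control it differed by a log2 fold change of 1.56 ± 0.75 (adjusted p = 0.157, edgeR). Altogether the 40 ligands summed to 934 to 1096 FPKM in the DNCB libraries and to 168 to 476 FPKM in the other 9. Ccl8 made up 27.7% of the DNCB sum and Cxcl2 20.8%, whereas Ccl8 with 32.0% and Cxcl14 with 14.5% led in control, and Cxcl14 with 32.0% and Ccl8 with 25.8% in scMSC.

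**Figure D2:**
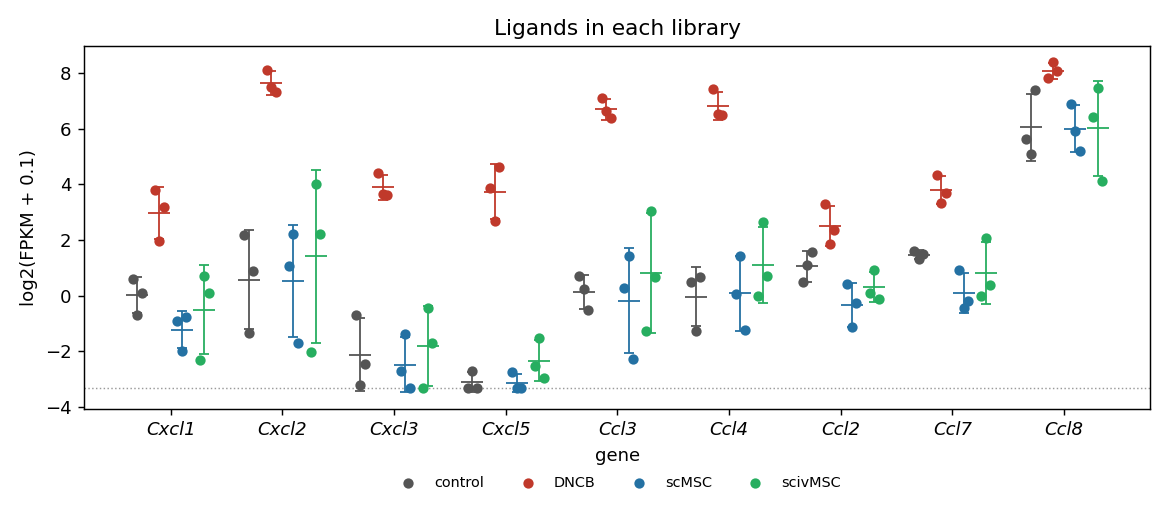
Levels of 9 inflammatory ligands in each library, as log2(FPKM + 0.1), by group; points are libraries, bars are mean and SD of 3, and the dotted line is 0 FPKM. Red points (DNCB) lie above all others for each of the 9 genes, and the gap is widest for Cxcl5 and narrow for Ccl2 and Ccl8.

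The receptors Cxcr1, Cxcr2 and Ccr1 of these ligands were called higher in the DNCB group as well. Cxcr1, a receptor of neutrophils, was at 1.33, 1.16 and 1.87 FPKM in DNCB, and no count was found in any of the other 9 libraries. Set against the floor, it was at least 12.6-fold higher in DNCB than in control, 14.2-fold than in scMSC and 13.7-fold than in scivMSC. It was called in each comparison, with edgeR adjusted p values of 0.00302, 0.00530 and 0.00978. Cxcr2, the receptor of Cxcl1, Cxcl2, Cxcl3 and Cxcl5, was at 11, 10.3 and 12.7 FPKM in DNCB. It was at 1.49, 2.14 and 2.20 FPKM in control, at 0.919, 1.00 and 0.964 FPKM in scMSC and at 2.21, 2.72 and 1.77 FPKM in scivMSC. Its replicates were close in every group. Its log2 fold change was 2.36 ± 0.20 against control (adjusted p = 0.000340), 3.53 ± 0.21 against scMSC (adjusted p = 4.6e-05) and 2.34 ± 0.20 against scivMSC (adjusted p = 0.000914), and these calls held without any 1 library.

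Of these receptors and their ligands, Cxcr2 alone was called between an MSC group and control. All scMSC libraries were below all control libraries, with a log2 fold change of -1.17 ± 0.19 (adjusted p = 0.00302, edgeR), and in scivMSC the difference from control was 0.02 ± 0.19 (adjusted p = 0.964). In the direct comparison of the MSC groups, scMSC was lower by 1.19 ± 0.19 on the log2 scale and the libraries did not overlap, but it was not called (adjusted p = 0.565, edgeR).

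Ccr1, a receptor of Ccl3, Ccl7 and other CC ligands on neutrophils and monocytes, was at 23.1, 19.7 and 20.6 FPKM in DNCB. It was at 1.13, 0.430 and 1.43 FPKM in control, at 1.09, 1.02 and 0.505 FPKM in scMSC and at 1.11, 2.14 and 0.808 FPKM in scivMSC. The log2 fold change was 4.23 ± 0.49 (adjusted p = 0.000608, edgeR), 4.57 ± 0.50 (adjusted p = 0.00145) and 3.97 ± 0.49 (adjusted p = 0.00323) against control, scMSC and scivMSC.

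Cxcr4, the receptor of Cxcl12 on many leukocytes, had higher RNA in DNCB in all 3 comparisons. It was at 26.7, 21.2 and 17.2 FPKM in DNCB, 3.31, 3.31 and 4.05 FPKM in control, 9.95, 4.76 and 6.61 FPKM in scMSC and 7.06, 12.2 and 4.93 FPKM in scivMSC. The log2 fold change in DNCB was 2.43 ± 0.33 against control (adjusted p = 0.000951, edgeR), 1.60 ± 0.32 against scMSC (adjusted p = 0.00879) and 1.44 ± 0.32 against scivMSC (adjusted p = 0.0221), the last lost without scivMSC replicate 1 or 3 or DNCB replicate 1 or 2 (adjusted p = 0.0660 to 0.0888). All 6 libraries of MSC-treated mice were above all controls, but neither group was called (0.83 ± 0.31, adjusted p = 0.0935, and 0.99 ± 0.31, adjusted p = 0.0624). Its ligand Cxcl12 was at 6.72 ± 2.44 FPKM (SD, n = 3) in the control group, 10.5 ± 3.45 in the DNCB group, 8.47 ± 2.74 in the scMSC group and 8.22 ± 0.793 in the scivMSC group and was not called.

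**Figure D3:**
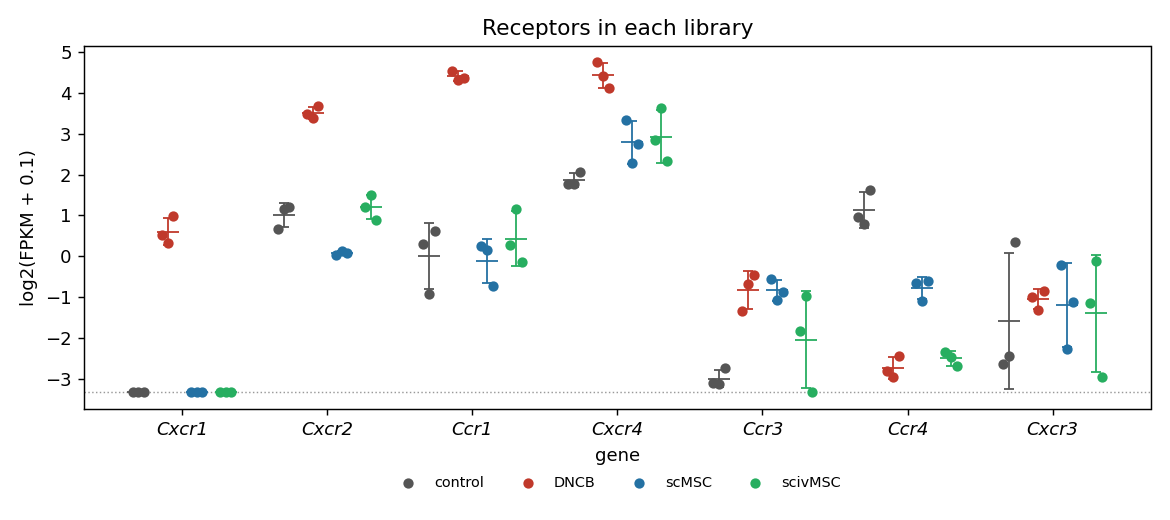
Levels of 7 receptors in each library, as log2(FPKM + 0.1), by group; points are libraries, bars are mean and SD of 3, and the dotted line is 0 FPKM. Cxcr1 is off the dotted line in DNCB alone, and Cxcr2 is lower in scMSC than in control. Ccr3 is lower in control than in DNCB and scMSC, with a scivMSC library on the dotted line. Ccr4 is highest in control and lowest in DNCB and scivMSC.

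Genes listed as neutrophil markers moved with these members. The 8 listed markers (Csf3r, Ly6g, Retnlg, Mmp8, S100a8, S100a9, Trem1 and Clec4d) summed to 2492 to 3492 FPKM in DNCB, 118 to 206 FPKM in control, 15 to 65.9 FPKM in scMSC and 33.1 to 179 FPKM in scivMSC. All 8 were called higher in DNCB against control and against scMSC, and 7 of 8 against scivMSC. Ly6g, which defines the neutrophil, was at 0 in all 9 libraries outside the DNCB group. The sums in those libraries therefore came from other genes of the list, and the sum is not a measure of neutrophil number. Cxcr1, Cxcr2 and Ccr1 are carried by neutrophils, which also make Cxcl2, Ccl3 and Ccl4, and the part of cell numbers in these results was not tested. The 8 macrophage and monocyte markers summed to 574 to 606 FPKM in DNCB and to 143 to 544 FPKM in control, and none was called in any of the 3 comparisons with DNCB. Of the 5 fibroblast markers, 3 were called higher in DNCB than in control, 2 than in scMSC and 0 than in scivMSC. The shares of all tested genes called higher in DNCB were 6.59%, 3.84% and 2.33%.

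Ccl27a and Ccl27b, the cutaneous T-cell attracting chemokine made by keratinocytes, were the members called lower in DNCB than in each other group. Ccl27a was at 1.87, 1.5 and 1.39 FPKM in DNCB, at 3.75, 2.88 and 4.54 FPKM in control, at 4.93, 5.97 and 2.96 FPKM in scMSC and at 6.73, 4.71 and 10.8 FPKM in scivMSC. Ccl27b was at 2.08, 3.52 and 2.49 FPKM in DNCB, at 11.9, 6.98 and 10.2 FPKM in control, at 16, 18 and 8.05 FPKM in scMSC and at 17.5, 10.2 and 25.9 FPKM in scivMSC. For both genes every DNCB library was below the other 9, a pattern shared by 4.03% of all tested genes. Ccl27a differed from control by a log2 fold change of -1.40 ± 0.36 (adjusted p = 0.0160, edgeR), -1.57 ± 0.36 against scMSC (adjusted p = 0.0168) and -2.24 ± 0.37 against scivMSC (adjusted p = 0.00730). That of Ccl27b was -2.01 ± 0.44 (adjusted p = 0.00744), -2.40 ± 0.45 (adjusted p = 0.00641) and -2.74 ± 0.45 (adjusted p = 0.00730). The Ccl27a call against control was lost without DNCB replicate 2 or 3 (adjusted p = 0.0537 to 0.0605), and that against scMSC also without scMSC replicate 2 (0.0643 to 0.0663 over the 3). Both lie on chromosome 4 and are near-identical copies that can share reads, and Ccl27a also overlaps Il11ra1 on the other strand, so their separate values are uncertain. Their receptor Ccr10, carried by skin-homing T cells, was called nowhere, with a log2 fold change from control of 0.31 ± 0.42 in DNCB. Of the 6 keratinocyte markers, Krt5, Krt14 and Dsg3 were called higher in DNCB than in control, 0 were called lower and 3 were not called. Of all tested genes, 6.59% were called higher and 7.57% lower. The part of keratinocyte number or state in the values of Ccl27a and Ccl27b was not tested.

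Ccr4, the receptor of skin-homing and type 2 helper T cells for Ccl17 and Ccl22, was lower in all 3 groups given DNCB than in control. It was at 1.86, 1.64 and 3.00 FPKM in control, at 0.0436, 0.0296 and 0.0848 FPKM in DNCB, at 0.536, 0.368 and 0.559 FPKM in scMSC and at 0.0992, 0.0823 and 0.0554 FPKM in scivMSC. Control libraries were highest, scMSC libraries came next, and those of DNCB and scivMSC overlapped. The log2 fold change was -5.45 ± 0.45 in DNCB (adjusted p = 0.000340, edgeR), -2.29 ± 0.39 in scMSC (adjusted p = 0.00320) and -4.90 ± 0.44 in scivMSC (adjusted p = 0.00119) against control. DNCB was lower than scMSC (-3.16 ± 0.42, adjusted p = 0.00209) and was not called against scivMSC (-0.55 ± 0.41, adjusted p = 0.479). In the direct comparison of the MSC groups Ccr4 was higher in scMSC by 2.61 ± 0.40 and the libraries did not overlap, but it was not called (adjusted p = 0.555, edgeR). The 2 ligands of Ccr4 were not called in any comparison and stayed under 1 FPKM in every library.

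The 8 T-cell markers summed to 3.18 to 5.61 FPKM in the control libraries, 4.05 to 4.51 FPKM in DNCB, 2.22 to 4.09 FPKM in scMSC and 2.83 to 4.13 FPKM in scivMSC. Cd4 was called higher in DNCB than in control, and Cd3g lower in scMSC than in control, and none of the other 5 tested was called in these comparisons. The median log2 fold change of the 7 tested was -0.33 in DNCB, -1.24 in scMSC and -0.44 in scivMSC against control, beside 0.02, 0 and 0.04 for all tested genes. Cd2, a surface protein of T and NK cells, was at 0.142, 0.402 and 0.242 FPKM in DNCB, below the 0.754, 0.557 and 0.830 FPKM of control (adjusted p = 0.0594, edgeR, not called). Of the 7 tested, Cd2 alone had every DNCB library below every control library, and 2 had every DNCB library above. The share of all tested genes with such a pattern between these 2 groups is not given here, so that the counts are a description only. The part of T-cell numbers in the values of Ccr4 was not tested. Cxcr3, a receptor of activated type 1 helper T cells for Cxcl9, Cxcl10 and Cxcl11, was at 0.0606, 0.0855 and 1.17 FPKM in control and at 0.405, 0.304 and 0.457 FPKM in DNCB. It was at 0.767, 0.108 and 0.361 FPKM in scMSC and at 0.357, 0.828 and 0.0301 FPKM in scivMSC. The 4 groups overlapped. The log2 fold change in DNCB against control was -0.30 ± 1.16 (adjusted p = 0.885, edgeR), and without control replicate 3 it was 2.05 (adjusted p = 0.236). Cxcl9 and Cxcl10 were called nowhere, and Cxcl11 was below 0.1 FPKM on average and not tested.

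Ccr3, the receptor for eotaxins on eosinophils, was at 0.0160, 0.0156 and 0.0494 FPKM in control, that is, 5 fragments over the 3 libraries. It was at 0.293, 0.528 and 0.634 FPKM in DNCB, at 0.581, 0.377 and 0.449 FPKM in scMSC and at 0.184, 0.408 and 0 FPKM in scivMSC. The ratio of fragments per library total was 17.4 in DNCB against control (95% exact binomial interval 7.21 to 54.9, counting error only) and 16.8 in scMSC against control (6.94 to 52.9). Both were called (adjusted p = 0.0324 and 0.0427, edgeR). The first was lost without any control replicate or DNCB replicate 2 or 3 (adjusted p = 0.0533 to 0.111), and the second without any 1 library but scivMSC replicates 2 or 3 (adjusted p = 0.0576 to 0.134). DNCB and scMSC differed by 0.03 ± 1.01 on the log2 scale. The 4 eosinophil markers summed to at most 0.603 FPKM in every library, and neither of the 2 tested was called in any comparison with DNCB. The 6 mast cell markers (Cma1, Mcpt4, Tpsb2, Cpa3, Kit and Fcer1a) were also lower in sum in control than in DNCB and scMSC. They summed to 22.01 to 36.9 FPKM in control, 91.0 to 108 FPKM in DNCB and 52.5 to 115 FPKM in scMSC, and to 101, 110 and 18.5 FPKM in the scivMSC libraries, of which the third had no count of Ccr3. That library was also the lowest of its group for the macrophage and fibroblast genes. The sum was 101 FPKM with Ccr3 at 0.184 in scivMSC replicate 1, and 52.5 FPKM with Ccr3 at 0.377 in scMSC replicate 2. Ccr3 is low in every library, and how closely it goes with the markers was not tested. Of the 6 markers, 2 were called higher than control in each of DNCB (Tpsb2 and Fcer1a), scMSC and scivMSC (Kit and Fcer1a in both). Of all tested genes, 6.59%, 5.12% and 3.50% were called higher in these groups. The part of mast cells in the Ccr3 result was not tested. The eotaxin Ccl11 was at 14.3 ± 4.77 FPKM (SD, n = 3) in the control group, 12.8 ± 2.80 in the DNCB group, 11.3 ± 6.85 in the scMSC group and 10.01 ± 7.02 in the scivMSC group and was not called.

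Ccl19, a ligand of the lymph node homing receptor Ccr7, was present in control (1.3, 0.633 and 0.562 FPKM) and in DNCB (0.549, 0.393 and 0.535 FPKM). It was at 0 in all 3 scMSC libraries and at 0, 0 and 0.0602 FPKM in scivMSC. Against the floor, scMSC was at least 5.47-fold lower than control (adjusted p = 0.00643, edgeR), and DNCB at least 2.88-fold higher than scMSC (adjusted p = 0.0125). The ratio of control to scivMSC fragments per library total was 43.3 (95% exact binomial interval 7.33 to 1752), with an adjusted p of 0.0237 that rose to 0.0644 to 0.0705 without control replicate 1 or scivMSC replicate 1 or 2. The levels are low, Ccl19 has near-identical copies on chromosome 4, and it overlaps a gene on the opposite strand, so that its counts are uncertain. Ccl19-ps3, a copy of pseudogene type, was at 2.07, 0.806 and 1.73 FPKM in control and between 0 and 0.773 FPKM in the other 9 libraries and was not called. Ccl21a, the other Ccr7 ligand, was at 20.3 ± 9.19 FPKM (SD, n = 3) in the control group, 16.8 ± 3.67 in the DNCB group, 11.4 ± 8.28 in the scMSC group and 11.7 ± 4.65 in the scivMSC group and was not called, nor was Ccr7.

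Xcl1, a ligand made by T and NK cells for the dendritic-cell receptor Xcr1, was listed at 0 in the 3 DNCB libraries. It was at 0.320, 0.354 and 0.299 FPKM in control, at 0.526, 0.433 and 0.0881 FPKM in scMSC and at 0.527, 0 and 0.198 FPKM in scivMSC. These are few fragments, 9.5 in all in control, and the floor allows only that DNCB was at least 1.27-fold lower than control and 1.22-fold lower than scMSC. Xcl1 also overlaps a gene on the opposite strand, so that its counts are uncertain. It was called in both (adjusted p = 0.0239 and 0.0411, edgeR). The first call was lost without control replicate 1 or any DNCB replicate (adjusted p = 0.0501 to 0.0615). The second was kept only without scivMSC replicates 1 or 2, and elsewhere its adjusted p was 0.0505 to 0.105, and it was lost under 7 of 9 other settings of the analysis. Among the 6 markers of dendritic and Langerhans cells, Cd207 and Cd74 were called lower in DNCB than in control and 4 were not called. In 1 of the 6 every DNCB library was above every control library, and in 3 every DNCB library was below. The share of all tested genes with such a pattern is not given here, and 7.57% of them were called lower in DNCB than in control. The part of these cells was not tested.

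Cxcl14, a homeostatic chemokine of epithelium, was lowest in the control libraries. It was at 43.4, 37.1 and 33.9 FPKM in control, at 77.4, 59.3 and 106 FPKM in DNCB, at 75.7, 115 and 76.1 FPKM in scMSC and at 94.2, 74.5 and 63.4 FPKM in scivMSC. Every library of the 3 groups lay above every control library. Markers of other tissue in the samples also differed between groups. The 4 skeletal muscle genes (Acta1, Ckm, Myh4 and Tnnt3) summed to 11721 to 17161 FPKM in control and to 3150 to 8490 FPKM in the other 9 libraries, with 3 of 4 called lower in each group. The 5 genes of the inner root sheath of the hair follicle summed to 4.04 to 294 FPKM in control, 281 to 862 FPKM in DNCB, 5976 to 16825 FPKM in scMSC and 2274 to 5528 FPKM in scivMSC. In DNCB, scMSC and scivMSC, 0, 5 and 3 of them were called higher than control. Of all tested genes, 6.59%, 5.12% and 3.50% were called higher than control in the same order, and 7.57%, 4.20% and 3.35% lower. The part of muscle and follicles in the differences from control, those of Cxcl14 and Ccr4 included, was not tested. For all 5 follicle genes every DNCB library was also below every scMSC library and every scivMSC library. The share of all tested genes with this pattern is not given here. Their median log2 fold change in DNCB was -4.55 against scMSC and -2.87 against scivMSC. The part of follicles in the differences between DNCB and the MSC groups, those of Ccl27a and Ccl27b included, was not tested either. The log2 fold change of Cxcl14 against control was 1.07 ± 0.25 in scMSC (adjusted p = 0.0154, edgeR), the only group to be called. It was 0.89 ± 0.25 in DNCB (adjusted p = 0.0245, under the fold threshold) and 0.84 ± 0.25 in scivMSC (adjusted p = 0.0522), and DNCB against scMSC was not called (-0.17 ± 0.25, adjusted p = 0.745). The scMSC call was lost without control replicate 2 or 3 or scMSC replicate 2 (adjusted p = 0.0578 to 0.0796).

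**Figure D4:**
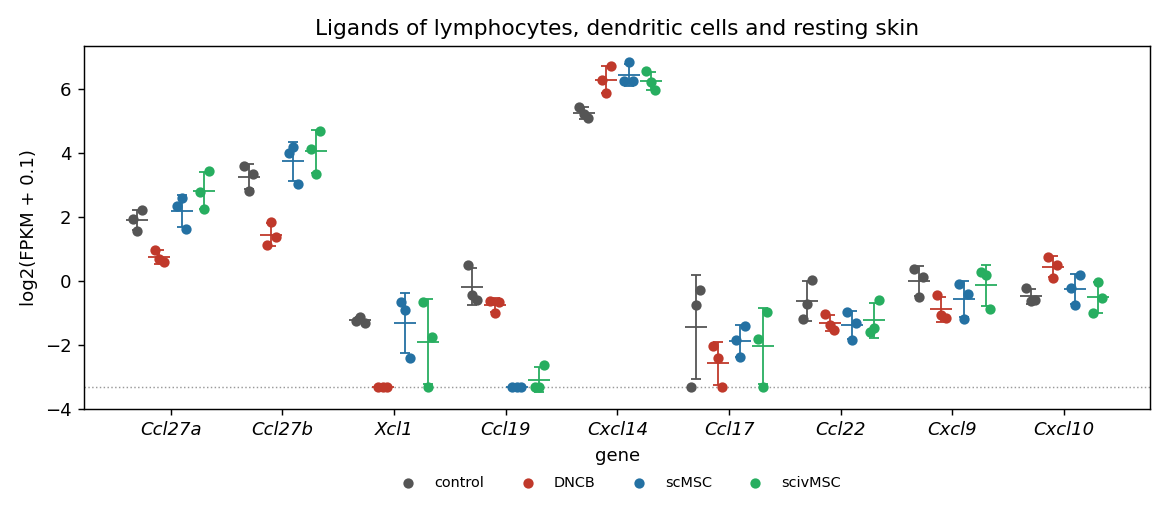
Levels of 9 other ligands in each library, as log2(FPKM + 0.1), by group; points are libraries, bars are mean and SD of 3, and the dotted line is 0 FPKM. Ccl27a and Ccl27b are lowest in DNCB, Xcl1 is at the dotted line in DNCB, Ccl19 is at or near it in both MSC groups, and the groups overlap for Ccl17, Ccl22 and Cxcl9.

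Compared with control, 5 of 51 tested members were called in scMSC (Ccr3 and Cxcl14 higher; Ccl19, Ccr4 and Cxcr2 lower), beside 9.32% of all tested genes (5.12% higher and 4.20% lower). In scivMSC 2 were called, Ccl19 and Ccr4, both lower, beside 6.85% of all (3.50% higher and 3.35% lower). The scMSC count fell to 3 without control replicate 3 or scMSC replicate 2. The scivMSC count fell to 1 without control replicate 1 or scivMSC replicate 1 or 2 and rose to 4 without scivMSC replicate 3. Between scMSC and scivMSC, no member was called by edgeR, beside 0.00457% of all tested genes. An unadjusted p under 0.05 was found for 4 members (7.84%) and for 7.50% of all tested genes, and DESeq2 called 2 members (3.92%) and 0.525% of all.

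Of the members with a mean of at least 5 FPKM that were called nowhere, Ccl6 was at 29.9 ± 21.6 FPKM (SD, n = 3) in the control group, 48.8 ± 15.3 in the DNCB group, 25.7 ± 15.5 in the scMSC group and 38.2 ± 28.2 in the scivMSC group. Ccl9, like Ccl6 a chemokine of myeloid cells, was at 9.45 ± 5.83, 18.8 ± 4.86, 7.36 ± 4.14 and 10.3 ± 7.44 FPKM in the same order. Cxcl16, the ligand of Cxcr6, was at 9.54 ± 2.77, 11.1 ± 0.198, 6.53 ± 1.89 and 9.06 ± 0.542 FPKM, and its difference between DNCB and scMSC (log2 fold change 0.75 ± 0.19, adjusted p = 0.0289, edgeR) was under the fold threshold. Cxcl13, a B-cell attractant, was at 80.3, 43.5 and 1.96 FPKM in scivMSC, against at most 15.05 FPKM in the other 9 libraries, and the 2 high libraries did not make a call (scivMSC against control, log2 fold change 2.54 ± 1.14, adjusted p = 0.176). The other 23 tested members that were called nowhere had means of 0.110 to 4.35 FPKM.

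Within the larger gene clusters, called and uncalled members lay side by side. Of the 5 members at chr5:90759360-90905938, Cxcl5, Cxcl3, Cxcl1 and Cxcl2 were called higher in DNCB than in control, and Cxcl15, which lies between Cxcl3 and Cxcl1, had a log2 fold change of 0.13 ± 1.35. The low level of Cxcl15 leaves its change unresolved. On the same chromosome, neither Cxcl9 nor Cxcl10 (chr5:92321347-92365485) was called. On chromosome 11, Ccl3 and Ccl4 were called and Ccl5, Ccl9 and Ccl6 were not, in 1 cluster (chr11:83525778-83664683). In the other (chr11:82035571-82305690), Ccl7 was called and Ccl2, Ccl11, Ccl12 and Ccl8 were not. The uncalled Ccl2, Ccl12 and Ccl8 had log2 fold changes of 1.37, 2.53 and 1.56 with every DNCB library above the other 9, and Ccl11 had -0.33. Of the receptors at chr9:123678439-124147699, Ccr1 and Ccr3 were called among 7 tested. Cxcr1 and Cxcr2 (chr1:74153989-74194631) were both called. Coordinates are those of GRCm38 in the deposited table, and members were placed in 1 cluster when less than 500 kb apart.

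**Figure D5:**
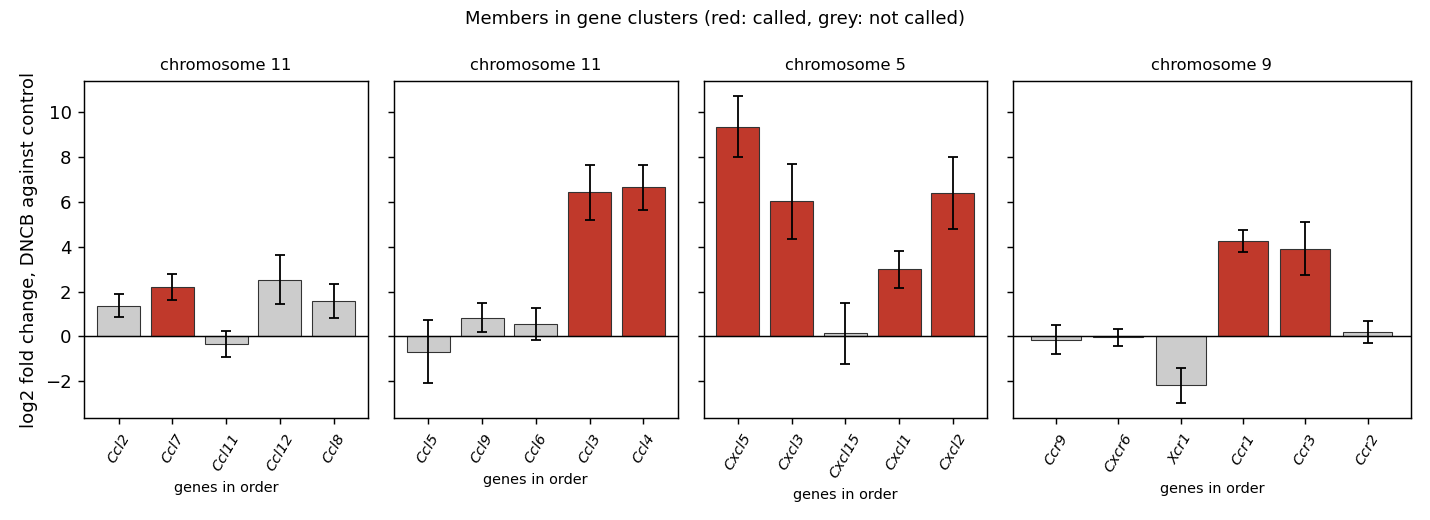
Log2 fold change of DNCB against control for tested members of the 4 gene clusters with at least 5 of them, in chromosomal order and with 1 member not drawn; bars are edgeR estimates with SE (n = 3 per group), red bars are called and grey bars are not. Red and grey bars stand side by side in each cluster, such as the short grey bar of Cxcl15 between Cxcl3 and Cxcl1, and the grey bar of Ccl12 is taller than the red bar of Ccl7.

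Around the receptors, the atypical receptor gene Ccrl2, which binds the chemoattractant chemerin, was called higher in DNCB in each comparison. It was at 24.1, 20.7 and 13.6 FPKM in DNCB and at most 3.52 FPKM elsewhere, with a log2 fold change from control of 3.45 ± 0.71 (adjusted p = 0.00540, edgeR). Of the 4 scavenging receptors, Ackr4, which removes Ccl19 and Ccl21, was called lower in DNCB than in control (-1.84 ± 0.39, adjusted p = 0.00624), and Ackr1, Ackr2 and Ackr3 were not called. The platelet chemokines Pf4 and Ppbp were called higher in DNCB against control (1.63 ± 0.51, adjusted p = 0.0372, and 3.01 ± 1.00, adjusted p = 0.0483) and against scMSC, and Pf4 also against scivMSC.

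Of 28 genes of signalling from the receptors and its shutdown, 7 were called higher and none lower in DNCB than in control. Against scMSC 8 were higher, and against scivMSC 6. Of all tested genes, 6.59%, 3.84% and 2.33% were called higher in DNCB in the same order, and 7.57%, 4.66% and 3.13% lower. The Src-family kinases Fgr and Lyn, which act downstream of the receptors in myeloid cells, were called in all 3, with log2 fold changes of 2.87 ± 0.58 (adjusted p = 0.00522, edgeR) and 1.69 ± 0.31 (adjusted p = 0.00316) against control. The guanosine triphosphatase gene Rac2 and its activators Vav1 and Prex1 were called against both MSC groups and not against control. Of 10 genes of NF-kB subunits and inhibitors, Bcl3 and Nfkbie were called higher in DNCB in all 3 comparisons (1.66 ± 0.34, adjusted p = 0.00520, and 1.06 ± 0.25, adjusted p = 0.00999, against control), Nfkbiz only against scMSC, and none was lower.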

How the data were processed

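The authors deposited 1 table of 36400 genes for 12 dorsal skin libraries, with FPKM values, which the authors normalized by length and depth, and estimated counts in whole numbers, deposited without any scaling across libraries. The submitters' processing notes name Bowtie 0.12.2, HISAT2 2.0, StringTie 1.3.0 and the build mm8 with no roles; the coordinates are those of GRCm38, and all 59 members overlap their GENCODE M21 position. Whether reads were counted by strand is not given in the sources used here, and reads of human MSCs were not separated. Besides Ccl27a, Ccl19 and Xcl1, other members overlap a gene on the opposite strand, Ccr10, Ccl21a, Cxcl16, Ccl6 and Cxcl10 among them. Their counts carry the same uncertainty.

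The estimated counts as deposited by the authors were tested with edgeR 4.0.16 in R 4.3.3 (quasi-likelihood F-test, TMM factors 0.887 to 1.06, 1 model of the 4 groups, common biological coefficient of variation 0.420) over 21890 genes (mean FPKM 0.1 or more). Scripts were tested on simulated data. Standard errors were derived from the F statistic. Groups follow the labels, which do not say whether each library is a separate mouse. Depth, 63877153 to 75134001 estimated counts per library, sets a floor of 12 estimated counts; floors and intervals cover counting error only.

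The members, gene lists and tests were chosen with earlier results of these data known. Values per library are given for members called in at least 1 of 6 comparisons and for Cxcr1, Cxcr2, Cxcr3 and Ccr3, and group levels for the other members with a mean of at least 5 FPKM; values of Ccl8, Cxcl13, Ccl19-ps3 and Ccrl2 by library, and the named uncalled members of lower level, were added after their values were seen. Alternatives were DESeq2 1.42.0, limma 3.58.1 on log2(FPKM + 0.1) and log2(FPKM + 1), other filters, scalings and thresholds, counts divided by 4, a replicate block, the 6 libraries compared alone and each library left out. The values of 1 tested member are not reported here, though the counts of members include it. Protein sequences were not used here. Summaries were made in Python 3.11.15 with scipy 1.17.1, and plots with matplotlib 3.10.9.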

Additional observations from a re-analysis of the deposited data

Results flagged for a closer look

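Cxcr5, the receptor of Cxcl13 on B cells, had a mean below 0.1 FPKM and was not tested. It had 26, 48 and 25 estimated counts in the DNCB libraries, so that the lowest, 25, was above the floor of 12, against 4, 0 and 0 in control, 5, 8 and 0 in scMSC and 0, 16 and 0 in scivMSC. It was noted because every DNCB library was above every control library in a gene outside the comparisons. The difference was not tested, and 25 estimated counts are about 6 fragments. The 4 B-cell markers summed to 0.181 to 0.670 FPKM in DNCB and to 0.841 to 0.860 FPKM in control. The part of B-cell numbers was not tested.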

How the results depend on the processing

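Over 9 other settings, the 54 calls of single members kept their direction. Of these, 13 lost the adjusted p threshold under at least 1 setting, counting 10 under the replicate block and 6 with the 6 libraries alone. This count leaves out the fold threshold. Over the settings and the omissions of 1 library, some fold changes also came under that threshold. The log2 fold change went up to -0.497 for Ccr4 in DNCB against scMSC and to -0.577 for Cxcr2 in scMSC against control. Leaving out 1 library gave 12 to 19 members called in DNCB against control, 14 to 18 against scMSC and 7 to 14 against scivMSC, 3 to 6 in scMSC against control, 1 to 4 in scivMSC against control and 0 to 0 between the MSC groups. The replicate block gave 1 for scivMSC against control. The numbers did not pair the samples (18 same-numbered pairs, r = -0.19 to 0.13, 1 over 0.1; 3 of 12 libraries were closest to their own number). The scivMSC count against control was 4 with library size alone, 5 with limma on log2(FPKM + 0.1), 1 with the 6 libraries alone and 6 with DESeq2, and that of scMSC was 3 with limma on log2(FPKM + 1) and 9 with DESeq2. Between the MSC groups DESeq2 called 2. At an unadjusted p under 0.5 and a fold over 2 the counts of 51 members were 28 in DNCB against control, 27 against scMSC, 29 against scivMSC, 16 and 18 in scMSC and scivMSC against control and 14 between the MSC groups, beside 29.1%, 22.2%, 20.3%, 24.1%, 21.5% and 12.0% of all tested genes in the same order. The cause was not tested. Library size alone moved the median log2 fold change of all genes against control to 0.20, 0.16 and 0.21 in DNCB, scMSC and scivMSC. Uncalled differences changed sign in DNCB against control. Cxcr3 went to 0.53 and 0.0325 with limma at either pseudocount and ran from -0.85 to 2.05 without 1 library (highest without control replicate 3), Cxcl13 to 0.00722 with library size alone, 0.44 and 0.32 with limma, 0.0471 with the replicate block and -0.66 to 1.34 without 1 library (above 0 without control replicate 3 or DNCB replicate 1), and Cxcl16 ran from -0.0901 to 0.23 (below 0 without control replicate 1 or 2). Genes near the floor are limited by depth.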
